A study of Mus musculus with 4 samples.

Results

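The genes described are 10 members of the MHC class I presentation pathway: H2-K1, H2-D1, B2m, Tap1, Tap2, Tapbp, Psmb8, Psmb9, Psme1 and Nlrc5. They were chosen by name for their role, with earlier results of these data known, and were looked up by symbol among the 32285 genes of the files, where all 10 were found. Their mRNA was counted in single cells from the infarct core and about 2 mm of surrounding cortex of male C57BL/6N mice that were 10 months old. Sham-operated mice received isotype antibody, and mice with dMCAO stroke (distal middle cerebral artery occlusion) received isotype antibody, anti-VCAM1 or anti-VLA4, in each case for 10 weeks, which makes 4 groups. VCAM1 is an adhesion molecule of activated endothelium, and VLA4 is the leukocyte integrin that binds it. Tissue of 4 to 5 mice was pooled by condition, cells were stained for CD31 and CD45, and each pool gave 1 library. With 1 library per group, a difference between groups is a difference between libraries, no test between groups was possible, and intervals cover counting error only.

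MHC class I molecules show peptides from inside the cell to CD8 T cells and natural killer cells. Peptides are cut by the proteasome, pumped into the endoplasmic reticulum by the TAP transporter, loaded onto a heavy chain with the help of tapasin and carried to the surface together with beta-2-microglobulin. Interferons raise nearly all of these genes, and NLRC5 is the transactivator that works on class I promoters. In brain, endothelial cells hold class I at rest, and microglia raise it in inflammation and ageing.

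H2-K1 (ENSMUSG00000061232, GRCm38 chr17:33996017-34000347, minus strand) and H2-D1 (ENSMUSG00000073411, chr17:35262730-35267499, plus strand) encode the classical heavy chains. B2m (ENSMUSG00000060802, chr2:122147686-122153083, plus strand) encodes their light chain. Tap1, Tap2, Tapbp, Psmb8 and Psmb9 also lie on chromosome 17, Psme1 on chromosome 14 and Nlrc5 on chromosome 8 (GENCODE M21). Tap1 and Psmb9 point away from each other, with RefSeq start sites 226 bases apart, and their GENCODE gene spans overlap on opposite strands. The heavy chain genes are near-identical copies of each other and of the H2-Q and H2-T genes over part of their length, so how reads matching more than 1 of them were counted could shift their values.

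NLRC5 itself does not bind DNA; it is held at class I promoters by RFX, CREB/ATF and NF-Y proteins on a set of boxes, of which X2 holds TGACG and the Y box is an inverted CCAAT. The RefSeq promoter table for GRCm38.p6 held 8 of the 10 genes, and no entry was found for Tap2 or Nlrc5. In the 250 bases before the start, searched on both strands, TGACG occurred in H2-K1, H2-D1, B2m, Tap1 and Psmb9, against 17.8% of all 32851 promoters in the table. Tap1 and Psmb9 share 1 such match, in the region between them. A form chosen after seeing these sequences, TGACG followed 20 bases later by ATTGG, occurred in the genes of the 3 surface chains and in 0.0913% of all promoters. These 3 stretches of 30 bases are shown for comparison, with both boxes in capitals:
H2-K1 (chr17:34000359-34000388, minus strand): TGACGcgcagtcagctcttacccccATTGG
H2-D1 (chr17:35262993-35263022, plus strand): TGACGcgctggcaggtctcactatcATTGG
B2m (chr2:122147609-122147638, plus strand): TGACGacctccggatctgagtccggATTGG

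Between H2-K1 and H2-D1, 23 of the 30 bases were the same, and between H2-K1 and B2m 13, of which the search fixed 10 in each case. The stretch began 41 bases before the start in H2-K1, 101 in H2-D1 and 78 in B2m. Whole windows of 250 bases are shown for 1 heavy chain and for the light chain, with capitals for the TGACG box, the NF-kappaB consensus, CCAAT on either strand and the interferon-stimulated response element (GAAA, any 2 bases, then GAAA):
H2-K1 (chr17:34000348-34000597, minus strand): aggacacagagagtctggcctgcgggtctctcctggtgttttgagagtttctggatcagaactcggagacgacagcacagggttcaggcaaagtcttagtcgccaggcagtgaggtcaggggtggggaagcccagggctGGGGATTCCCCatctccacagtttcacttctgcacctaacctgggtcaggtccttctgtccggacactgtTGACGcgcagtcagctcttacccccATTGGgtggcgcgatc
B2m (chr2:122147437-122147686, plus strand): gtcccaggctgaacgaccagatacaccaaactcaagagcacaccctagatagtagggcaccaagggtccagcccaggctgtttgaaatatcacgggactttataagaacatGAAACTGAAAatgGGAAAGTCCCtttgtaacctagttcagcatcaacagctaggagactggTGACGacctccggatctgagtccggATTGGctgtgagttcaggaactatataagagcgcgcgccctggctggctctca

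The NF-kappaB consensus was found in H2-K1, H2-D1 and B2m and in 7.25% of all promoters. In the exact form searched, the interferon-stimulated response element was found in B2m alone among the 8 genes and in 2.98% of all promoters. Variant forms of it were not searched, so the other promoters may hold one. The gamma-activated site (TTC, any 3 bases, then GAA) was found in Psmb8 alone among the 8 genes and in 7.02% of all promoters. CCAAT on either strand was found in 33.8% of all promoters. A match describes these letters in this window and no more.

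The files held 15544 cell barcodes, between 1541 (sham) and 6361 (anti-VLA4) per library, and 15219 were kept, with a median of 4516.5 to 5466 UMIs per cell. Clustering without the class I genes gave 23 clusters, of which 22 could be named from markers. Of the kept cells, 53 had a barcode found in both the sham and the stroke isotype library, with a median of 18200 UMIs in the first and 603 in the second. Other pairs of libraries shared 1 to 7 barcodes. Leaving these cells out did not move the median over the 10 genes beyond its error or the counts past the fold by over 1.5 times. The classes with at least 50 cells in every library were endothelial-like (540, 647, 2449 and 3169 cells in sham, stroke isotype, anti-VCAM1 and anti-VLA4), microglia-like (692, 1482, 1816 and 2460), T-cell-like (73, 247, 112 and 201) and border-macrophage-like (147, 278, 88 and 110). All 8 endothelial and all 8 microglial markers were found in their own class in every library. Of the border-macrophage-like cells 74.1%, 76.3%, 71.6% and 61.8% in the same order of libraries lay in cluster 12. By the naming rule this cluster had 4 of the 8 border macrophage markers, where cluster 16 had 8. Plac8 and Ccr2 of the monocyte list were among the leading genes of cluster 12, so its name is less sure. Among markers of other cells, T cell markers summed to 0.400 to 2.41 CPM (counts per 1000000 UMIs of the class) in endothelial-like cells and to 4083 to 5831 CPM in the T-cell-like class. Endothelial-like cells also held erythrocyte markers, which are mostly haemoglobin genes, at 13503, 12834, 4331 and 4764 CPM in the 4 libraries, and markers of the B cell list at 975 to 1579 CPM. Microglial markers summed to 345 to 2629 CPM in T-cell-like cells and 1732 to 3012 CPM in border-macrophage-like cells.

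Class I genes were measured in every class. Among the classes with at least 50 cells in every library, T-cell-like cells stood highest in most of these genes. H2-K1 stood at 1586, 1479, 1647 and 1817 CPM in T-cell-like cells in the order sham, stroke isotype, anti-VCAM1 and anti-VLA4. In endothelial-like cells H2-K1 stood at 507, 609, 538 and 642 CPM, and in microglia-like cells at 264, 274, 272 and 282 CPM. The ranges over libraries of the T-cell-like, endothelial-like and microglia-like classes did not overlap, while border-macrophage-like cells (506 to 648 CPM) overlapped the endothelial range.

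H2-D1 followed the same order at both ends. It was 1378 to 1704 CPM in T-cell-like cells, 745, 792, 906 and 995 CPM in endothelial-like cells, and 342, 367, 400 and 443 CPM in microglia-like cells. The light chain B2m was ordered differently, with no overlap between any of the 4 classes. B2m was highest in T-cell-like cells (1233 to 1479 CPM), then border-macrophage-like (922 to 1130 CPM), microglia-like (853 to 903 CPM) and endothelial-like cells (641 to 740 CPM). Microglia-like cells were thus below endothelial-like cells in both heavy chains and above them in the light chain, in every library.

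**Figure D1:**
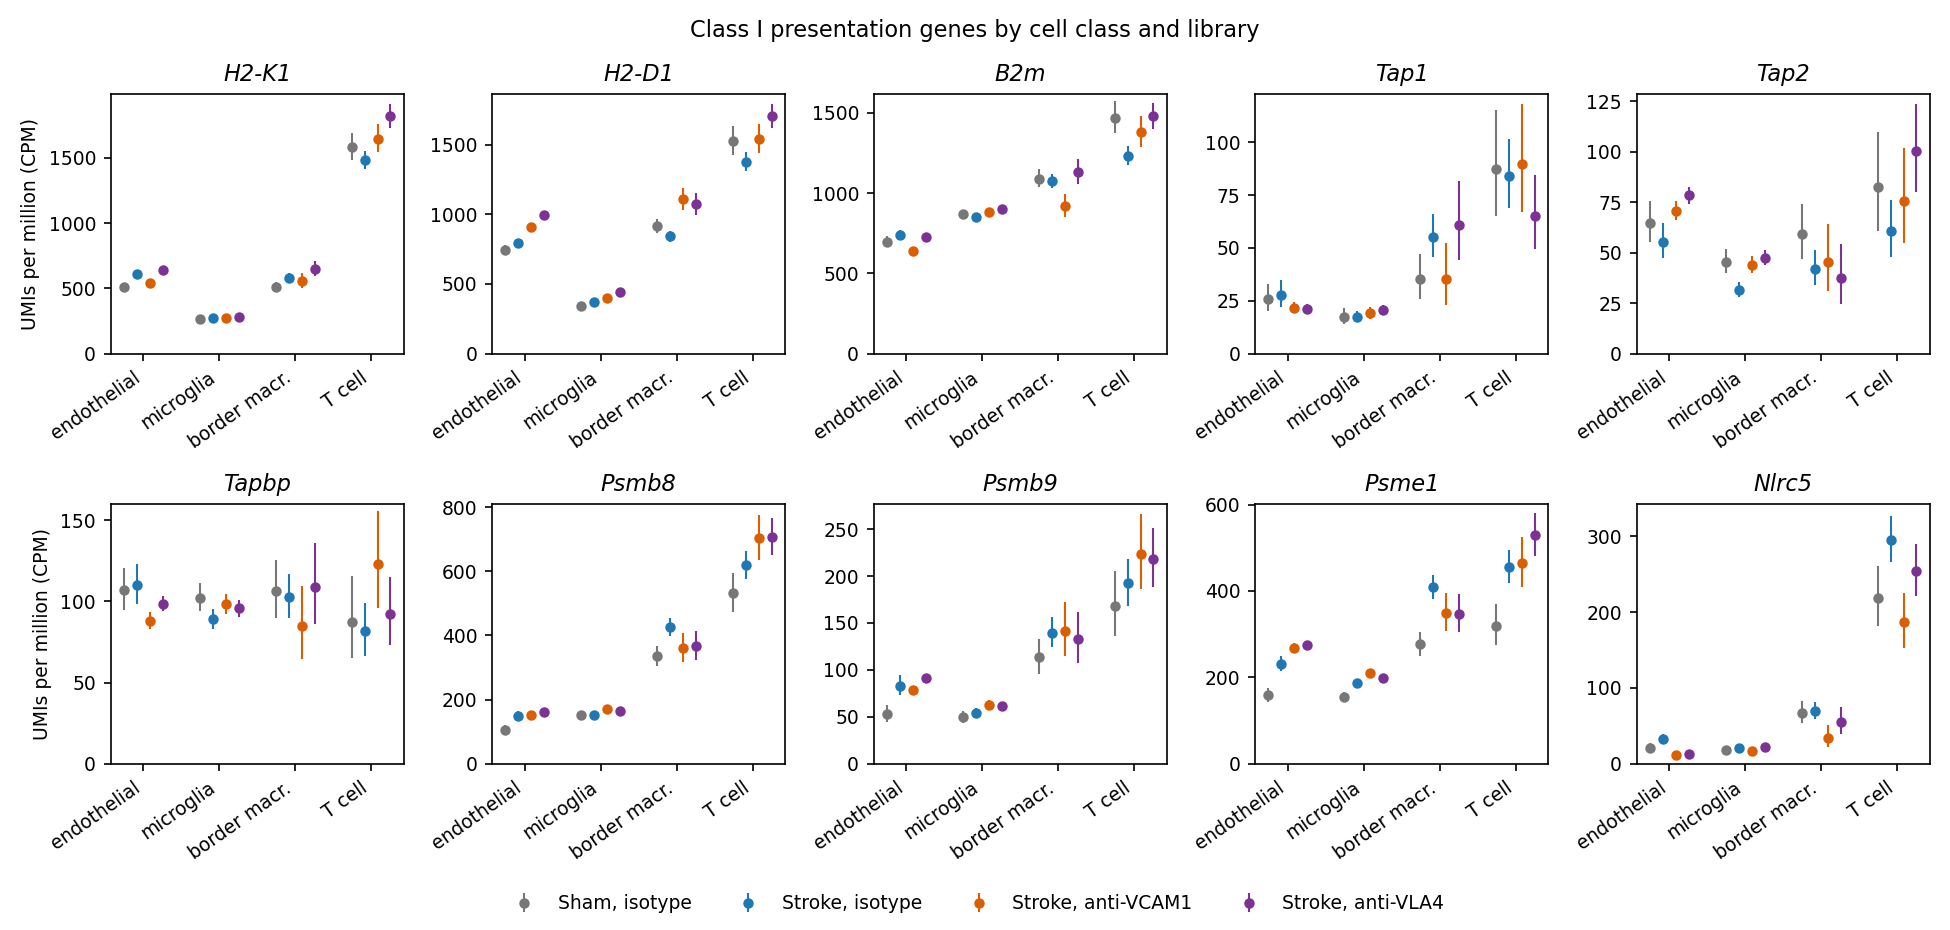
Counts per 1000000 UMIs (CPM, linear axes from 0) of each of the 10 genes in the 4 larger cell classes; each point is 1 library, coloured by group, and bars are exact 95% Poisson intervals. T-cell-like cells are the highest class for 9 of the 10 genes by the median over libraries, and Tapbp is level across classes.

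The TAP transporter genes were low. Tap1 was 65.3 to 89.8 CPM in T-cell-like, 35.3 to 60.8 in border-macrophage-like, 21.1 to 27.9 in endothelial-like and 17.4 to 20.5 CPM in microglia-like cells, with no overlap between neighbours. Tap2 ranges overlapped between T-cell-like (60.8 to 100.2 CPM) and endothelial-like cells (55.4 to 78.3 CPM), and between microglia-like (31.6 to 47.2 CPM) and border-macrophage-like cells (37.3 to 59.3 CPM). Tapbp, which encodes tapasin, lay between 81.6 and 123 CPM in all 16 class and library sums, and all neighbouring classes overlapped.

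The peptide-making genes and Nlrc5 were highest in T-cell-like cells, then in border-macrophage-like cells. Psmb8, a catalytic subunit of the immunoproteasome, was 533 to 707 CPM in T-cell-like, 335 to 426 in border-macrophage-like, 151 to 171 in microglia-like and 106 to 162 CPM in endothelial-like cells, and only the last pair overlapped. Psmb9, another such subunit, was 168 to 224 CPM in T-cell-like and 113 to 142 CPM in border-macrophage-like cells, above endothelial-like (52.8 to 91.4 CPM) and microglia-like cells (49.7 to 62.4 CPM), which overlapped. Psme1, a subunit of the PA28 cap that opens the proteasome, was 319 to 529 CPM in T-cell-like cells and overlapped there with border-macrophage-like cells (276 to 409 CPM). Nlrc5 was 187 to 295 CPM in T-cell-like, 34.0 to 70.0 in border-macrophage-like, 17.5 to 21.6 in microglia-like and 11.2 to 32.3 CPM in endothelial-like cells, and only the last pair overlapped.

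Across these 16 sums the mean profile of the 10 genes, each scaled over the sums, was most like Ifi208 (Pearson r = 0.965), Slco3a1 (r = 0.965), Rpl22l1 (r = 0.955), Rpl13a (r = 0.953) and Id2 (r = 0.952) among 12101 other genes. These points share 4 libraries and the T-cell-like class dominates them, so the values are a description. Of the 10 genes, Tapbp (r = 0.07) and Tap2 (r = 0.59) were least like the joint profile, and the other 8 lay between 0.84 and 0.96.

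Stroke was compared with sham, both with isotype antibody. In endothelial-like cells the genes that make peptides were higher in the stroke library, while the genes that load and carry them differed little. Psmb8 was 106 CPM (95% Poisson interval 94.0 to 120) in sham and 150 CPM (136 to 165) in stroke. Psmb9 was 52.8 CPM (44.2 to 62.6) and 83.3 CPM (73.1 to 94.4), and Psme1 was 158 CPM (143 to 174) and 231 CPM (214 to 249). For each of these genes the intervals of the 2 libraries were apart, with stroke above sham.

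On the log2 scale the differences were 0.49 for Psmb8 (95% binomial interval 0.27 to 0.72), 0.65 for Psmb9 (0.34 to 0.97) and 0.54 for Psme1 (0.36 to 0.73). A gene was counted as higher or lower here, or past the fold, when its log2 difference was at least 0.32 in size and it had at least 200 UMIs over both libraries. Of the 8 class I genes with enough UMIs, these 3 were higher and 0 lower, against 6.54% of all 4846 genes tested that were higher and 8.34% that were lower. The median log2 difference of the 8 was 0.18, beside -0.03 for all genes tested. H2-K1 was 0.26 higher (0.16 to 0.37), below the fold. H2-D1 (0.09) and B2m (0.09) had intervals that reached just below 0. Across 4845 genes the log2 difference went down with log10 gene span (Pearson r = -0.41). Over 13 alternative ways of processing, 1 of which removed this trend, Psmb8 ranged from 0.33 to 0.56. Psmb9 ranged from 0.52 to 1.18 and Psme1 from 0.38 to 0.92. The values of related genes given below are not corrected for the trend.

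Nlrc5 was 21.2 CPM (15.9 to 27.7) in sham and 32.3 CPM (26.1 to 39.6) in stroke, a log2 difference of 0.59 (0.11 to 1.12) from 147 UMIs, under the minimum. Tap1 also fell short of the minimum, at 26.0 and 27.9 CPM. Tap2 (-0.22) and Tapbp (0.04) had intervals that held 0. Within the 3 endothelial clusters with at least 50 cells in both libraries, Psmb8, Psmb9, Psme1 and Nlrc5 were each higher in stroke in 3 of 3.

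Among related genes, all 3 other interferon-inducible proteasome genes were past the fold: Psmb10 0.37, Psme2 0.42 and Pomp, the assembly chaperone, 0.35. Of 14 measured constitutive proteasome genes 2 were higher, Psmb5 (0.35) and Psmb1 (0.34), and 0 were lower, with a median of 0.23. Of the 4 measured loading factors of the endoplasmic reticulum 0 passed the fold in either direction, from Canx at 0.11 to the peptide trimmer Erap1 at -0.09. Of 17 measured interferon-stimulated genes 7 were higher and 0 lower, with a median of 0.26. Ifit3 (0.92) and the GTPase Iigp1 (0.69) differed most.

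The regulators were mixed. Of 14 measured, 3 were higher, among them the interferon gamma receptor chain Ifngr1 (0.47) and Irf9 (0.37), and 1 was lower, Creb1 (-0.35). None of the 5 measured non-classical class I genes passed the fold, from H2-Q7 at 0.20 to H2-T23 at -0.09. Markers of other cells also differed between the 2 libraries of endothelial-like cells: microglial markers summed to 70.4 CPM in sham and 282 in stroke, and neutrophil markers to 6.40 and 25.1 CPM. Their part in these differences was not tested. An other-class marker filter, which dropped cells with marker UMIs of other classes, left 268 endothelial-like cells in sham and 258 in stroke. In these cells Psmb8, Psmb9 and Psme1 had log2 differences of 0.56, 0.76 and 0.59. Which marker lists the filter used is not given here, and it need not include every list.

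In microglia-like cells the same comparison gave a smaller median over the class I genes, and Tap2 differed most. Tap2 was 45.5 CPM (39.8 to 51.7) in sham and 31.6 CPM (28.1 to 35.4) in stroke, a log2 difference of -0.51 (-0.78 to -0.27). It was the 1 of 10 class I genes past the fold, on the lower side, where 6.08% of all genes tested lay (3.45% on the higher side). The median of the 10 was 0.04, beside -0.04 for all genes. Tap2 was lower in stroke in 5 of 5 microglial clusters.

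Psme1 was 154 CPM in sham and 186 CPM in stroke microglia-like cells, 0.27 higher (0.15 to 0.39) and below the fold. Psmb8 stood at 151 and 153 CPM and B2m at 867 and 853 CPM. Thus Psmb8, which was apart in endothelial-like cells, had a microglial difference of 0.01 (-0.11 to 0.14). Of 14 measured constitutive proteasome genes 0 passed the fold, and of 18 regulators 0 were higher and 3 lower, among them the NF-Y subunits Nfya (-0.54) and Nfyb (-0.55). Of 10 measured interferon-stimulated genes 1 was higher, Ifitm3 (0.79), and 2 were lower, Cxcl10 (-0.43) and Irgm1 (-0.36). Tnf, a cytokine that raises class I, was 0.47 higher.

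T-cell-like and border-macrophage-like cells are given with less weight, for their small numbers and their microglial marker content. In T-cell-like cells Psme1 was 319 CPM in sham and 456 CPM in stroke (0.52), and Nlrc5 219 and 295 CPM (0.43). These 2 of 7 class I genes with enough UMIs were past the fold on the higher side, with 14.8% of all genes tested, and 0 on the lower side, with 23.3%. B2m was lower by less than the fold, at 1470 and 1233 CPM (-0.25). In border-macrophage-like cells Psme1 was 276 and 409 CPM (0.56) and Psmb8 335 and 426 CPM (0.35), 2 of 8 genes, beside 8.08% of all genes higher and 16.7% lower. The Psmb8 value turned to -0.31 when doublets were kept and all cells clustered anew, which left a cluster of 493 cells led in part by MHC class II genes without a name, and to -0.02 when cells took their class from markers cell by cell. Microglial markers in T-cell-like cells summed to 2629 CPM in sham and 875 CPM in stroke, and their part in the T-cell-like values was not tested.

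Antibody blockade was compared with isotype antibody after stroke. Both blockades share the stroke isotype library as control, so a high or low value there enters both comparisons, and the stroke comparison with the opposite sign. In endothelial-like cells Nlrc5 stood out among the 10 genes. Its level was 21.2 CPM in sham, 32.3 CPM in stroke isotype, 11.2 CPM (9.34 to 13.2) under anti-VCAM1 and 13.4 CPM (11.7 to 15.2) under anti-VLA4. Both blockade libraries lay below both isotype libraries, and their intervals did not reach the sham interval of 15.9 to 27.7 CPM.

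The log2 difference of Nlrc5 from stroke isotype was -1.46 (-1.93 to -1.14) under anti-VCAM1 and -1.22 (-1.63 to -0.91) under anti-VLA4. At these values 0.116% and 0.319% of all genes tested lay at or below it. The counts behind them were 94 UMIs in stroke isotype, 133 under anti-VCAM1 and 223 under anti-VLA4, and no cell gave more than 5. Nlrc5 was lower in 5 of 5 endothelial clusters in both comparisons, between -1.33 and -0.98 under anti-VCAM1 and between -1.35 and -0.61 under anti-VLA4. These clusters share the 1 stroke isotype library and split its 94 UMIs. In cluster 3 that library had Nlrc5 at 13.7 CPM, out of 218411 UMIs of all genes. Over 13 alternative ways of processing Nlrc5 ranged from -1.68 to -1.03 and from -1.49 to -0.85.

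Other measures moved with Nlrc5 in these cells. It has the longest span of the 10 genes (92917 bases in GENCODE M21), and across genes the log2 difference went down with log10 span (Pearson r = -0.60 over 7729 genes under anti-VCAM1 and -0.57 over 8468 under anti-VLA4). With that trend removed Nlrc5 was -1.21 and -0.95. The make-up of the class differed as well. Cluster 5, with Il1r1 and Vcam1 among its leading genes and Nlrc5 at 28.3, 43.1, 16.9 and 18.7 CPM in sham, stroke isotype, anti-VCAM1 and anti-VLA4, held 40.7%, 30.8%, 13.6% and 12.5% of endothelial-like cells in the same order. Cluster 3, poor in the nuclear RNA Malat1 (0.506% of UMIs) and at 5.52 CPM Nlrc5, held 3.70%, 8.50%, 22.3% and 23.7%. With clusters weighted equally Nlrc5 was -1.58 and -1.35.

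**Figure D2:**
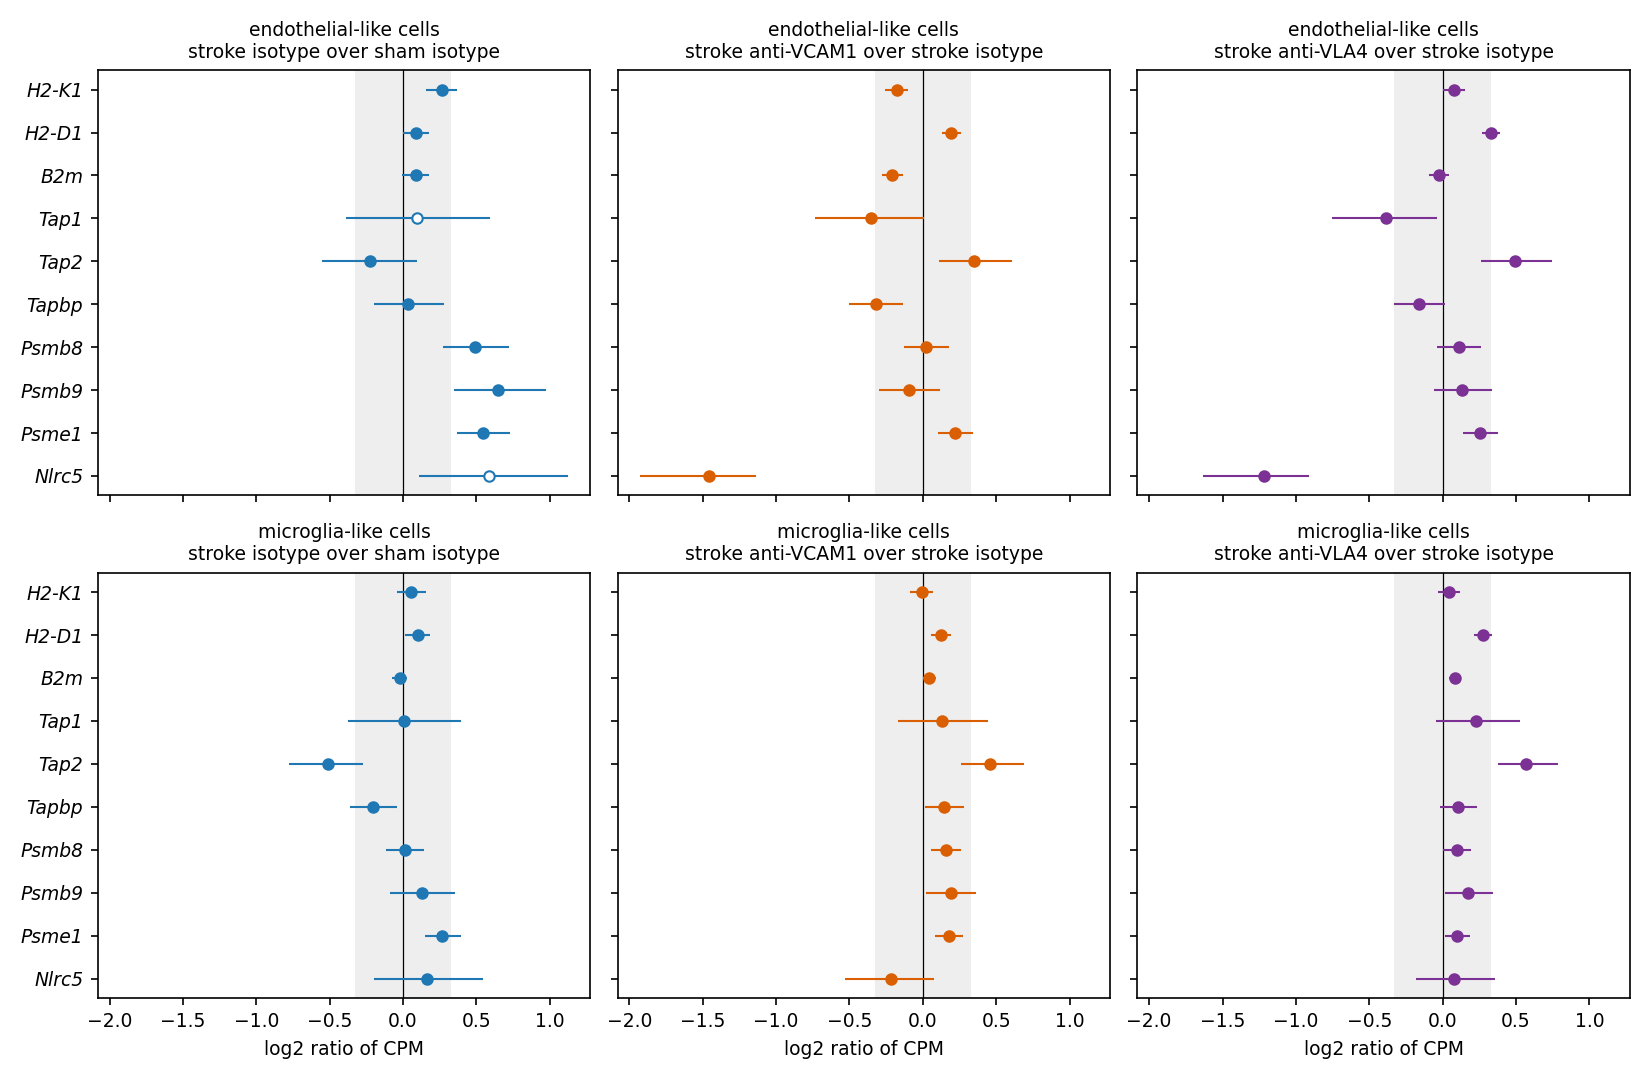
Log2 ratio of CPM for each of the 10 genes in endothelial-like (upper) and microglia-like cells (lower) in the 3 comparisons, with 95% binomial intervals; open points had under 200 UMIs over both libraries, and the grey band marks log2 ratios under 0.32 in size. Nlrc5 lies at -1.46 and -1.22 in endothelial-like cells under the blockades, and Tap2 is outside the band in all 3 microglial comparisons.

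The 3 surface chains differed less than Nlrc5, and H2-D1 was on the other side of 0. H2-D1 was 0.19 higher under anti-VCAM1 (0.13 to 0.26) and 0.33 higher under anti-VLA4 (0.27 to 0.39), the latter just past the fold, and was higher in 3 of 5 and 5 of 5 clusters. Under anti-VLA4 H2-D1 ranged from 0.12 to 0.47 over the alternatives and was under the fold with clusters weighted equally, cell-by-cell naming, the stricter cell filter, the span trend removed and both Malat1 settings. H2-K1 was -0.18 (-0.26 to -0.10) under anti-VCAM1 and 0.08 (0.004 to 0.15) under anti-VLA4, and lower in 5 of 5 and 4 of 5 clusters. The anti-VLA4 value of H2-K1 was below 0 in 3 of 13 alternatives. B2m was -0.21 (-0.28 to -0.14) and -0.02 (-0.09 to 0.04), and lower in 5 of 5 clusters in both. Tapbp was -0.32 (-0.50 to -0.13) and -0.16 (-0.33 to 0.02), also lower in 5 of 5 clusters in both.

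The transporter genes split. Tap1 was 27.9 CPM in stroke isotype, 21.6 under anti-VCAM1 and 21.1 under anti-VLA4, with log2 differences of -0.36 (-0.74 to 0.01) and -0.39 (-0.75 to -0.04). Tap2 was 55.4, 70.7 and 78.3 CPM, with differences of 0.35 (0.11 to 0.60) and 0.49 (0.26 to 0.75). For Tap1 the fold held and the interval reached or came near 0, and with each cell thinned to 1000 UMIs its difference turned to 0.60 and 0.54. Tap2 stayed above 0 in all 13 alternatives of both comparisons (0.19 to 0.65 under anti-VCAM1 and 0.33 to 0.65 under anti-VLA4). Under anti-VCAM1 it was under the fold with cell-by-cell naming, the span trend removed, both Malat1 settings and the other-class marker filter. It was higher in 5 of 5 and 4 of 5 clusters.

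Among all 10 genes, 1 was higher and 2 were lower under anti-VCAM1 (12% and 19.3% of 7733 genes tested), and 2 were higher and 2 lower under anti-VLA4 (12.4% and 21% of 8472). These shares are near those of genes at large. The medians of the 10 were -0.14 and 0.09, beside -0.04 and -0.05 for all genes. Psmb8 was 0.02 and 0.11, Psmb9 -0.09 and 0.13, and Psme1 0.22 and 0.25, all below the fold. In the blockade libraries the erythrocyte marker sum of endothelial-like cells was 4331 and 4764 CPM, against 12834 CPM in stroke isotype, and the pericyte marker sum was 455 and 509 against 229 CPM. Their part in these values was not tested. In endothelial-like cells left by the other-class marker filter Nlrc5 was -1.68 and -1.49, which match the lowest values over the 13 alternatives. The filter left 258 of 647 cells in stroke isotype. With it no class I gene was counted as lower under anti-VLA4, so Nlrc5 fell short of the UMI minimum there. Whether it reached that minimum under anti-VCAM1 is not given here. The lists used in that filter are not given here and need not include the erythrocyte or pericyte markers.

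Genes around the pathway were mixed. Of 18 measured interferon-stimulated genes 0 were higher and 5 lower under anti-VCAM1 (median -0.20), and 1 was higher and 4 lower under anti-VLA4 (median -0.10). Iigp1 was -0.66 and -0.67 and Ifit2 -0.88 and -0.58, while Bst2 was 0.26 and 0.35. Of 15 constitutive proteasome genes 2 were higher and 0 lower in each, Psmb5 (0.45 and 0.41) and Psmb3 (0.49 and 0.49). Of 19 measured regulators 3 were higher and 4 lower in each. The RFX subunit Rfxap was 0.50 and 0.53 and the NF-Y subunit Nfyc -0.64 and -0.55.

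The non-classical genes differed between them. H2-T23, the ligand of the NKG2A receptor, was 0.37 and 0.33 higher. H2-Q6 was -1.02 and -0.51, and H2-Q7 was -0.76 under anti-VCAM1, where 2 of 9 measured genes were higher and 3 lower. H2-Q6 and H2-Q7 are close copies, and their split is uncertain.

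In microglia-like cells Tap2 was the 1 class I gene past the fold in each blockade. It was 31.6 CPM in stroke isotype, 43.9 CPM (39.9 to 48.1) under anti-VCAM1 and 47.2 CPM (43.6 to 51.1) under anti-VLA4, beside 45.5 CPM in sham. The stroke isotype library alone was low, and the 3 others had overlapping intervals. The log2 differences were 0.46 (0.26 to 0.69) and 0.57 (0.38 to 0.78), higher in 6 of 6 clusters in both.

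Of all genes tested in microglia-like cells 4.04% were higher and 2.81% lower under anti-VCAM1, and 5.46% and 4.42% under anti-VLA4. The medians of the 10 class I genes were 0.14 and 0.10, beside 0.03 and 0.06. H2-D1 was 0.12 (0.06 to 0.19) and 0.27 (0.21 to 0.33) higher, in 5 of 6 and 6 of 6 clusters. H2-K1 was -0.01 and 0.04 with intervals that held 0. Nlrc5, at -0.21 (-0.53 to 0.08) and 0.08 (-0.18 to 0.36), did not show the endothelial values.

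Of 18 measured regulators 1 was higher, Nfyb (0.41 and 0.41), and 2 were lower in each blockade, with medians of -0.04 and -0.03. Irf1, which drives class I genes after interferon, was -0.47 under anti-VCAM1 and -0.69 under anti-VLA4, and the NF-kappaB subunit Relb was -0.38 and -0.68. Tnf was -0.30 and -1.16. Cxcl10 was -1.26 under anti-VCAM1. H2-T24 (0.49) and H2-M3 (0.41) were the 2 of 10 measured non-classical genes past the fold under anti-VLA4.

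**Figure D3:**
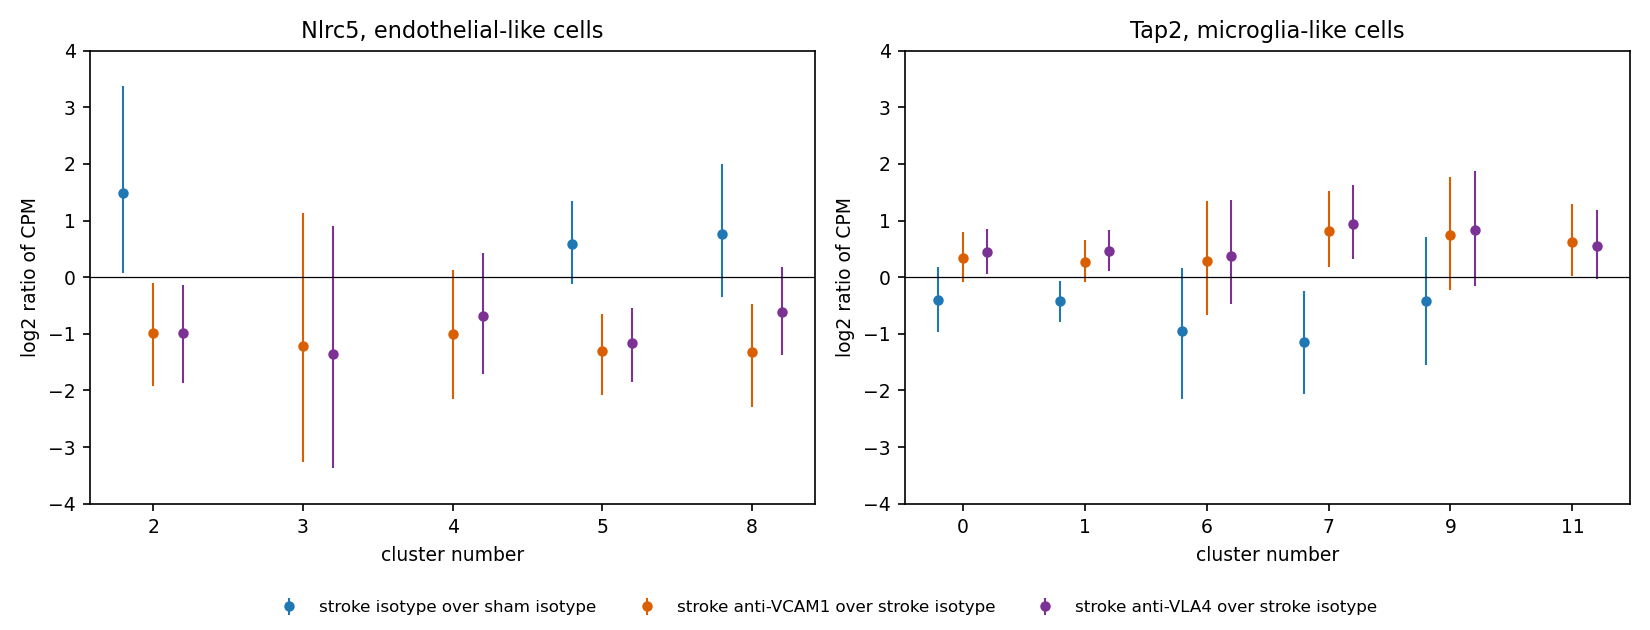
Log2 ratio of CPM within single clusters that had at least 50 cells in both libraries, for Nlrc5 in endothelial-like (left) and Tap2 in microglia-like cells (right), with 95% binomial intervals and colours for the 3 comparisons. All Nlrc5 points of the blockades lie below 0 and all Tap2 points of the blockades above 0, with many intervals that cross 0.

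In T-cell-like cells Nlrc5 was 295 CPM in stroke isotype, 187 CPM under anti-VCAM1 and 254 CPM under anti-VLA4, with log2 differences of -0.66 (-0.99 to -0.35) and -0.22 (-0.47 to 0.03). It was the 1 of 7 class I genes past the fold under anti-VCAM1, on the lower side with 16.5% of all genes (8.83% were higher). Under anti-VLA4 0 of 7 were past it (8.98% higher and 21.3% lower). H2-K1 (0.30), H2-D1 (0.31) and B2m (0.26) were higher there by less than the fold. Across 1713 genes the log2 difference under anti-VLA4 also went down with log10 span (Pearson r = -0.49). Over 12 alternatives, 1 of which removed this trend, H2-K1 ranged from 0.13 to 0.33 and H2-D1 from 0.14 to 0.36. B2m ranged from 0.10 to 0.31 and Nlrc5 from -0.38 to -0.005. Microglial markers in these cells summed to 875 CPM in stroke isotype, 1653 under anti-VCAM1 and 345 under anti-VLA4, and their part was not tested.

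In border-macrophage-like cells H2-D1 was 842 CPM in stroke isotype, 1107 under anti-VCAM1 and 1072 under anti-VLA4 (0.40 and 0.35). It was the 1 of 7 genes past the fold in each (11.3% higher and 21.5% lower of all genes, and 9.91% and 22.5%). H2-K1 was -0.06 and 0.15, with intervals that held 0. Nlrc5 had log2 differences of -1.02 and -0.34. It fell short of the UMI minimum in both comparisons, with 152 UMIs in stroke isotype, 24 under anti-VCAM1 and 40 under anti-VLA4. Endothelial markers in these cells summed to 27.6, 253 and 1368 CPM in the same order, and their part was not tested.

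The 2 blockades were also set against each other, which does not use the isotype libraries. In endothelial-like cells 9 of the 10 genes were higher under anti-VLA4 than under anti-VCAM1, and 6 had intervals above 0, but 0 were past the fold (1.15% of 9243 genes were higher and 1.17% lower). H2-K1 was 538 and 642 CPM under anti-VCAM1 and anti-VLA4, a log2 difference of 0.26 (0.21 to 0.30) that 97.6% of genes did not exceed. B2m was 0.18 (0.14 to 0.22), Psmb9 0.22 (0.11 to 0.35), Tapbp 0.16 (0.05 to 0.27) and H2-D1 0.13 (0.10 to 0.17). The median of the 10 was 0.15, beside -0.0048 for all genes. H2-Q7 (0.68) and H2-Q6 (0.51) were past the fold. H2-K1, H2-D1 and B2m were each higher under anti-VLA4 in 6 of 7 clusters.

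In microglia-like cells 0 of the 10 genes were past the fold between the blockades (2.36% of all genes higher and 2.5% lower), with a median of 0.04 beside 0.02. H2-D1 (0.15, interval 0.09 to 0.21) and Nlrc5 (0.29, 0.03 to 0.59) had intervals above 0. Cxcl10 (1.29) was higher and Tnf (-0.86) lower under anti-VLA4. In T-cell-like cells 1 of 7 class I genes was higher, Nlrc5 (0.44, interval 0.10 to 0.79), and 0 were lower, beside 10.1% and 10.6% of all genes. In border-macrophage-like cells 0 of 5 were past the fold, beside 11.9% higher and 13.7% lower, and B2m was 0.29 (0.14 to 0.45).

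The balance of the heavy chains was taken as the share of H2-K1 in the UMIs of H2-K1 and H2-D1, which does not depend on library scaling. In endothelial-like cells it was 40.5% (exact 95% binomial interval 38.8 to 42.3) in sham, 43.5% (41.9 to 45.0) in stroke isotype, 37.2% (36.5 to 38.0) under anti-VCAM1 and 39.2% (38.6 to 39.8) under anti-VLA4. Stroke isotype was highest, and both blockades lay below it with intervals apart. In microglia-like cells the share was 43.5% (41.8 to 45.3), 42.8% (41.5 to 44.1), 40.5% (39.4 to 41.7) and 38.9% (38.0 to 39.9). Anti-VLA4 lay below both isotype libraries. Over the alternative ways of processing, its range (38.9% to 39.5%) met that of sham (39.4% to 43.8%) but not that of stroke isotype (42.6% to 44.7%).

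In border-macrophage-like cells the H2-K1 share was 35.6%, 40.9%, 33.6% and 37.7%. T-cell-like cells were level at 50.9%, 51.8%, 51.7% and 51.6%. Stroke isotype was above both blockades in all 4 classes, with intervals apart for both blockades in endothelial-like cells, for anti-VLA4 in microglia-like cells and for anti-VCAM1 in border-macrophage-like cells. In T-cell-like cells all intervals overlapped. Over the alternative ways of processing, the border-macrophage-like ranges of stroke isotype (40.9% to 45.7%) and anti-VCAM1 (33.0% to 43.5%) overlapped. In endothelial-like cells the range of stroke isotype (43.3% to 44.6%) stayed above those of both blockades. Reads that match both genes, or H2-Q and H2-T genes, could be split or dropped, and their part in these shares was not tested.

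Immunoproteasome subunits replace constitutive ones in new proteasomes, so each was set against the subunit it replaces. Psmb8 made up 52.1% (47.6 to 56.5), 54.5% (51.0 to 58.0), 47.1% (45.5 to 48.7) and 49.3% (48.0 to 50.6) of Psmb8 and Psmb5 UMIs in endothelial-like cells. The isotype libraries overlapped, and both blockades were below stroke isotype with intervals apart. Psmb8 itself was not lower there, with log2 differences of 0.02 and 0.11 from stroke isotype, while Psmb5 was higher past the fold in both blockades. In microglia-like cells the Psmb8 share was 70.0%, 71.1%, 69.9% and 71.0%, and all intervals overlapped. It was 81.5% to 86.8% in T-cell-like and 75.2% to 83.0% in border-macrophage-like cells.

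Psmb10 made up 54.8% (49.7 to 59.7) of Psmb10 and Psmb7 UMIs in sham endothelial-like cells and 64.4% (60.1 to 68.5) in stroke isotype, with intervals apart, and 61.1% and 60.9% in the blockades. Psmb9 made up 29.7%, 34.9%, 31.7% and 35.4% of Psmb9 and Psmb6 UMIs there, and sham overlapped stroke isotype. In microglia-like cells the Psmb9 share was 41.5%, 42.5%, 44.2% and 46.0%, and neighbouring intervals overlapped. For Psmb8 and Psmb9 every microglial share exceeded every endothelial share, while those of Psmb10 overlapped.

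**Figure D4:**
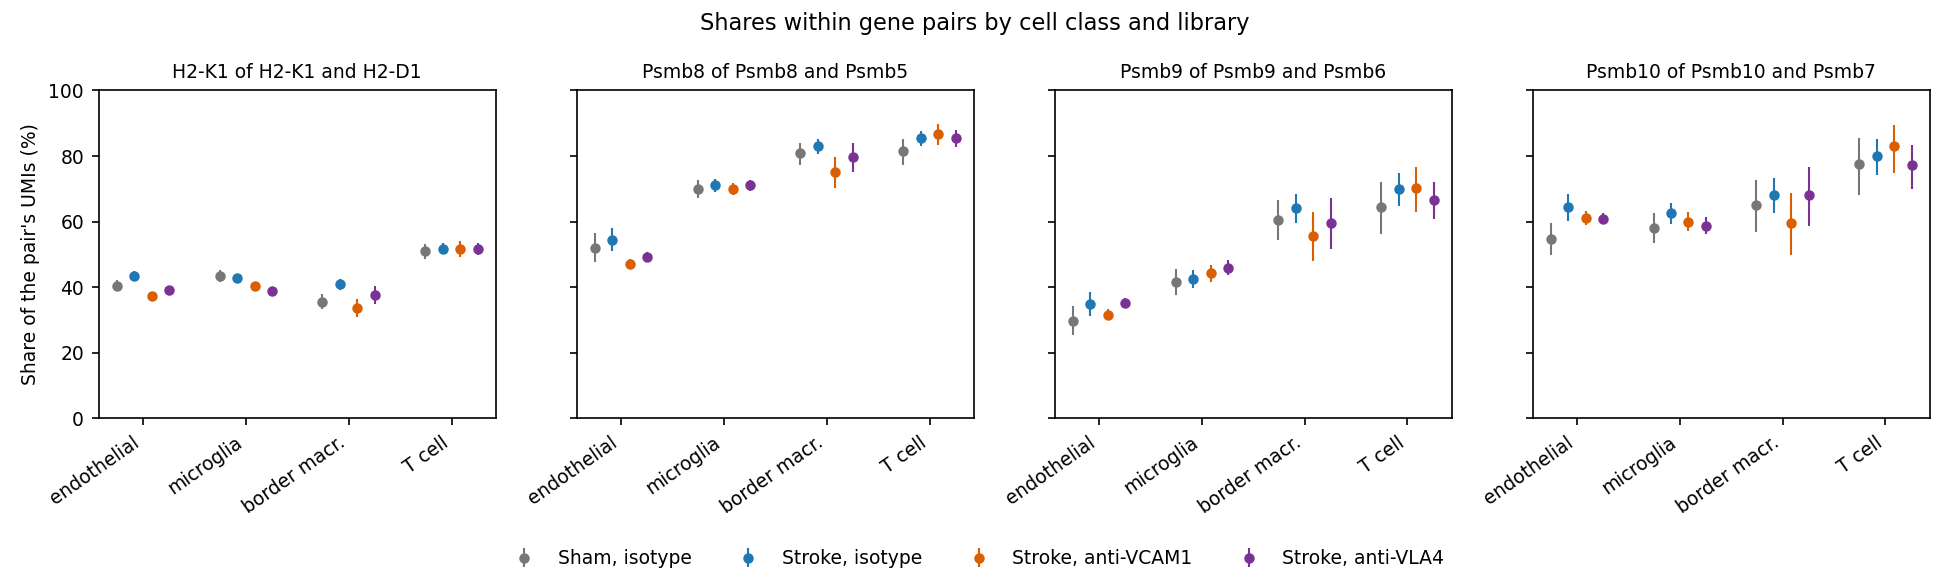
Share of a pair's UMIs (%, axis from 0 to 100) that came from H2-K1, Psmb8, Psmb9 or Psmb10, by cell class; each point is 1 library, coloured by group, with its exact 95% binomial interval. The H2-K1 share in endothelial-like cells goes from 43.5% in stroke isotype to 37.2% under anti-VCAM1, and the Psmb8 share separates endothelial-like cells from the other classes shown.

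Within classes the genes varied by cluster. The clusters were made without the class I genes, and levels are given over the 4 libraries summed. In microglia-like cells cluster 11, led by Spp1, Apoe, Fabp5, Lgals3, Lpl and Cst7, had 994 CPM H2-D1, 613 H2-K1, 1453 B2m, 35.5 Tap1 and 53.1 Nlrc5. It was the highest microglial cluster in the first 4 of these genes in each of the 3 stroke libraries. In Nlrc5 it was highest in stroke isotype and anti-VLA4, but under anti-VCAM1 it had 26.5 CPM and cluster 6 had 33.3 CPM. Cluster 6 was lowest in H2-D1 (167 CPM), H2-K1 (130) and B2m (229), also in each library, and Malat1 took 5.49% of its UMIs against 2.36% in cluster 11. Cluster 11 held 2.31%, 8.03%, 7.82% and 8.50% of microglia-like cells in sham, stroke isotype, anti-VCAM1 and anti-VLA4.

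The sham library had 16 cells in cluster 11, too few for a comparison within it. In endothelial-like cells cluster 4, led by Gkn3 and with Ifit3, Ifit2 and Bmx among its leading genes, had 1246 CPM H2-D1, 761 H2-K1 and 853 B2m. Among the clusters of this class it was highest in B2m in every library. The unnamed cluster 18 (157 cells) is not in this class, though its best match was endothelial-like with 8 markers. It lay above cluster 4, at 1432 CPM H2-D1, 889 H2-K1 and 1009 B2m. Cluster 3 had 1173 CPM H2-D1 and 755 H2-K1, and lay above cluster 4 in H2-K1 in sham (740 and 715 CPM) and anti-VLA4 (825 and 813 CPM). Cluster 5 had 612 CPM H2-D1, 444 CPM H2-K1 and 23.5 CPM Nlrc5. In Nlrc5 it was the highest endothelial cluster in 3 libraries, but under anti-VLA4 it had 18.7 CPM and cluster 8 had 22.3 CPM. Cluster 4 held 9.07%, 15.0%, 20.9% and 22.2% of endothelial-like cells in the 4 libraries. In cluster 3 Malat1 took 0.506% of UMIs.

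**Figure D5:**
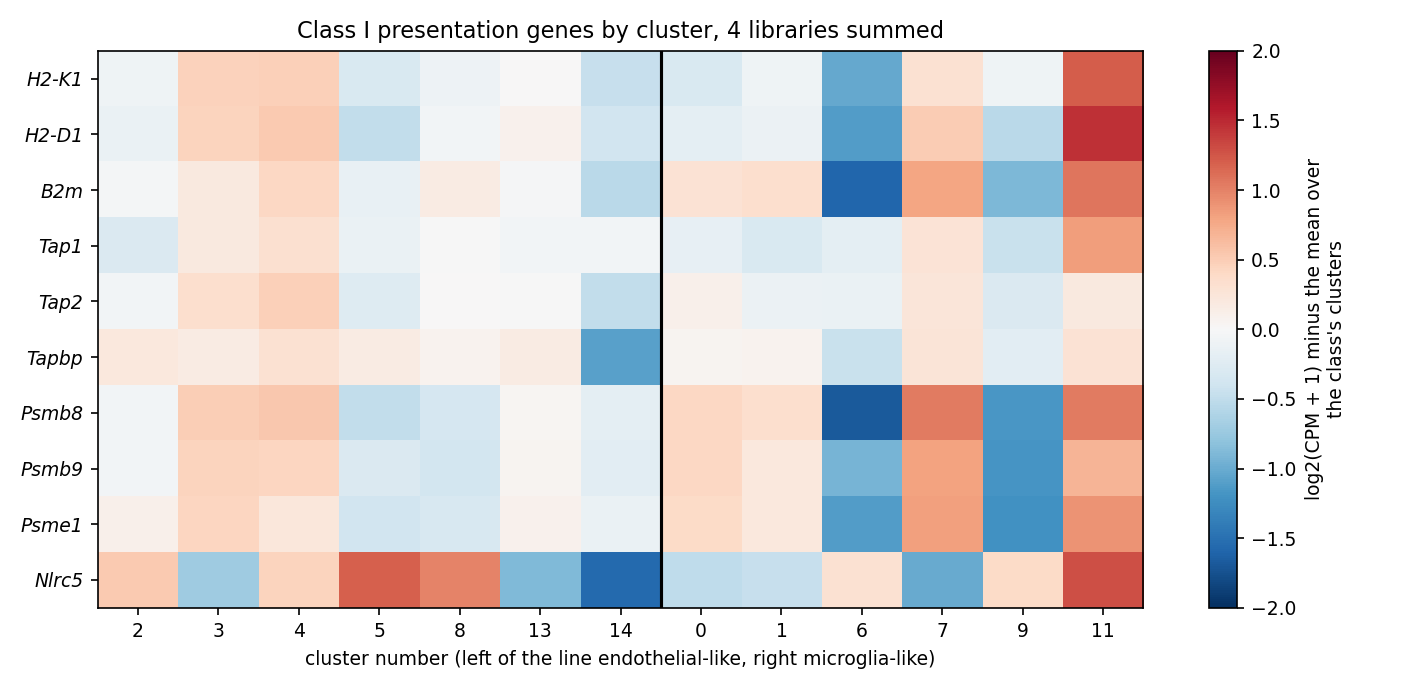
Log2(CPM + 1) of each gene minus its mean over the clusters of the class (colour, from -2 to 2), with endothelial-like clusters left of the line, microglia-like clusters right of it and the 4 libraries summed. Microglial cluster 11 is high and cluster 6 low for the surface chains, and Nlrc5 of the summed libraries is at 23.5 CPM in endothelial cluster 5, a rank that does not hold in the anti-VLA4 library.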

How the data were processed

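The deposited files hold whole-number UMI counts per gene and cell, which the authors made, per the file headers, with Cell Ranger 7.0.1; the submitters' processing notes name Cell Ranger 6.0.0 and the builds mm10 and GRCh38 without a role. Whether intronic reads were counted is not given in the sources used here. From these counts, cells with at least 500 UMIs, 200 genes and at most 10% mitochondrial UMIs were kept, doublets were removed with Scrublet through scanpy 1.11.5, and cells were clustered (2000 variable genes, 30 components, 15 neighbours, Leiden resolution 1) without the class I, mitochondrial, ribosomal and haemoglobin genes. Clusters were named from marker lists when at least 3 markers were detected. For each library, the counts of a class were added up and given per 1000000 UMIs (CPM) with exact 95% Poisson intervals (scipy 1.17.1). Log2 ratios carry a pseudocount of 1 CPM, and their conditional binomial intervals do not. A gene was counted as past the fold at a log2 ratio of at least 0.32 in size with at least 200 UMIs over the 2 libraries. With 1 library per group no test was run, and no adjusted p exists. The ratio step was tested on simulated counts. All 10 members are named; from each other list, up to 2 genes with the highest and 2 with the lowest log2 ratio per class and comparison, among those with at least 200 UMIs, could be named, and the value of a gene so named in 1 comparison may stand beside it for another. Genes of like pattern are the 5 with the highest correlation. The members and lists were chosen with earlier results of these data known.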

Additional observations from a re-analysis of the deposited data

How the results depend on the processing

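No paired analysis was possible because each group has 1 library. For the same reason no library could be left out. Of the medians and counts past the fold over the 10 genes, 222 alternative values kept their reading and 39 moved; the cause was not tested except where fewer UMIs or a higher fold leave fewer genes to count. Alternatives on Malat1, span, other-class markers, shared barcodes and single cells were chosen after seeing the data. With the span trend removed the endothelial medians were -0.35 (anti-VCAM1) and -0.13 (anti-VLA4), with 5 genes lower under anti-VCAM1. The endothelial count of higher genes under anti-VCAM1 (1) was 0 at 1.5-fold, with cells named on their own markers, with the span trend removed, without Malat1-poor clusters and without the tenth of cells lowest in Malat1. That under anti-VLA4 (2) was 0 at 1.5-fold and 1 with clusters weighted equally, own markers, the stricter filter, the span trend removed and either Malat1 setting; apart from 1.5-fold, the call lost is that of H2-D1, and under anti-VCAM1 that of Tap2. After stroke it (3) was 1 at 1.5-fold and with cells thinned. The endothelial count of lower genes under anti-VCAM1 (2) was 1 at 1.5-fold, with doublets kept and cells clustered anew, thinned, with the other-class marker filter, centred and without the top cell. Under anti-VLA4 (2) it was 1 at 1.5-fold, at the lower resolution, with doublets kept and cells clustered anew, and thinned, and 0 with the other-class marker filter. In microglia-like cells the higher count under anti-VCAM1 (1) was 0 at 1.5-fold and 2 thinned, under anti-VLA4 (1) 0 at 1.5-fold and 2 thinned or with equal weights, and after stroke (0) 1 thinned or with equal weights. The microglial lower count was 1 with own markers under anti-VCAM1 (0), and after stroke (1) 0 at 1.5-fold or thinned and 3 with equal weights. Among values past the fold, signs turned for endothelial Tap1 when thinned (0.60 under anti-VCAM1 and 0.54 under anti-VLA4). They also turned for border-macrophage-like Psmb8 after stroke with doublets kept and cells clustered anew (-0.31) or own markers (-0.015). Values not past the fold changed sign as well, among them endothelial Psmb8 under anti-VCAM1 in 6 of 13 alternatives. Depth limits the low genes: endothelial Nlrc5 rests on 53 to 223 UMIs per library, and Tap1, Tap2 and Tapbp had too few in T-cell-like cells.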

Other observations

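Smaller classes are given as values only, from libraries in which a class had at least 20 cells. B-cell-like cells of the 3 stroke libraries held H2-D1 at 903 to 1144 CPM, B2m at 856 to 959 CPM and Psmb8 at 344 to 449 CPM, with Nlrc5 at 41.3 to 74.8 CPM. Pericyte-like cells of the 2 blockade libraries held H2-K1 at 409 to 443 CPM, H2-D1 at 634 to 656 CPM and Nlrc5 at 9.27 to 11.5 CPM. Neutrophil-like cells of the stroke isotype and anti-VCAM1 libraries held H2-K1 at 636 to 952 CPM, H2-D1 at 1398 to 1549 CPM and B2m at 1077 to 1781 CPM. In stroke isotype their B2m (1781 CPM) was above that of T-cell-like cells (1233 CPM). Astrocyte-like cells of 3 libraries held H2-K1 at 97.5 to 206 CPM and B2m at 97.5 to 304 CPM, with H2-D1 at 213 to 428 CPM.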
